A study of Mus musculus with 4 samples.

Results

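Genes of the lysosome were followed in sorted peritoneal macrophages of mice labelled as knockouts of the transcription factor GATA6 in macrophages, and of control mice. The set held 50 listed genes for lysosomal hydrolases, lysosomal membrane proteins, the proton pump and the regulator TFEB. A gene entered the comparison when the platform annotation gave it a probe that was detected (detection p under 0.05) on at least 2 arrays, and its brightest such probe stood for it. This left 46 of the 50 genes, among 11628 genes and unnamed probes tested in all. Cd68 and Atp6v0c had no probe in the annotation used here, and Ctsk and Atp6v0d2 had 1 probe each that was detected on 0 arrays.

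The knockout group was labelled Mac-Gata6 KO and genotyped as LysM-cre with floxed Gata6, so the deletion depends on Cre expressed from the lysozyme M locus, which is active in macrophages and other myeloid cells. The other group was labelled control, with no alleles listed. Each group had 2 arrays, 1 per sample, and all 4 samples were untreated peritoneal macrophages of C57BL/6 mice aged 8-16 weeks. Whether the controls carried Cre, which markers the cells were sorted on, and whether replicates were separate animals or pools are points the sources used here do not state. The p-values therefore cover the spread among these 4 samples alone, and that spread may be technical.

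Lysosomes are acidic organelles in which macrophages break down what they have engulfed. A vacuolar-type ATPase pumps protons into the lumen, soluble hydrolases cut proteins, glycans, lipids and nucleic acids there, and membrane proteins carry the products out. Many genes of this system share a promoter element with the core CACGTG that is bound by TFEB and its relatives TFE3 and MITF.

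Each array detected 35.55% to 36.40% of its 45281 probes. Over all genes tested, the median absolute difference between the 2 arrays of a group was 0.18 in Mac-Gata6 KO and 0.16 in control, against 0.26 to 0.30 between arrays of different groups (log2 scale). The Gata6 signal was 13.07 and 12.83 on the Mac-Gata6 KO arrays, against 13.77 and 13.66 on the control arrays (log2 normalized intensity). The groups did not overlap, and the log2 change of -0.76 ± 0.15 left 59.0% of the control signal and passed the threshold used below (adjusted p = 0.0270), though not with any 1 array left out. With the mean of all detected Gata6 probes the log2 change was -0.90. Whether any of these probes lies inside the floxed region is not known here, so the signal is no firm check of the deletion. All 12 annotated core macrophage markers were detected, with summed normalized intensities of 146300 and 154700 in Mac-Gata6 KO, against 163800 and 166200 in control. Single markers moved further: 1 was higher in Mac-Gata6 KO, Cd163 (log2 change 2.98). The 3 lower ones were Fcgr1 (-2.94), Adgre1 (-1.56) and Icam2 (-0.56), and 8 did not pass.

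Most lysosomal genes did not pass the threshold, and those that did went both ways. Of the 46 tested, 6 were higher in Mac-Gata6 KO (Atp6v0a1, Ctsl, Acp2, Tpp1, Mcoln1 and Npc1), 5 were lower (Gpnmb, Glb1, Naglu, Gaa and Smpd1) and 35 did not pass. The threshold was a Benjamini-Hochberg adjusted p under 0.05 over all genes tested, from the moderated test of limma. These 11 genes were 23.9% of the lysosomal genes tested, beside 12.3% of all genes tested (6.11% higher and 6.14% lower). The genes were listed with earlier results of these data known, so this share and the medians below are no test of the set. The median log2 change (Mac-Gata6 KO minus control, as for every change below) was 0.16 for the lysosomal genes and -0.01 for all genes. With median scaling these medians were 0.09 and 0.04, and with the mean of all detected probes of a gene the lysosomal median was 0.09. A positive change was seen for 28 of the 46 genes, beside 49% of all genes. Both Mac-Gata6 KO arrays lay above both control arrays for 22 lysosomal genes and below them for 13. Over all genes these shares were 27.6% and 29.2%.

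Sizes were modest. With the normalization used here, only Gpnmb, Glb1 and Atp6v0a1 changed by at least 2-fold among the 46 genes, and with any 1 array left out only these 3 still passed in all 4 cases. Ctsl passed without control replicate 2 and in no other such case, and the other 7 called genes passed in none of the 4. With no detection filter Mcoln1, Npc1, Naglu, Gaa and Smpd1 did not pass, with median scaling Gaa and Smpd1 did not, and with the mean of all detected probes Acp2 and Npc1 did not (log2 changes of 0.36 and 0.23). The smallest change that passed was 0.58 in size (Npc1) and the largest that did not was 0.57 (Arsa). For each of the 35 genes that did not pass, the 95% interval of the log2 change lay between -0.97 and 0.89, so none of these intervals reached a 2-fold difference. Gla, Acp5 and Tfeb had signals near background, so their intervals do not exclude a 2-fold change in transcript. All 46 genes had at least 1 detected array in each group, and 43 were detected on all 4. Gpnmb, Gla and Acp5 were detected on 3.

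**Figure D1:**
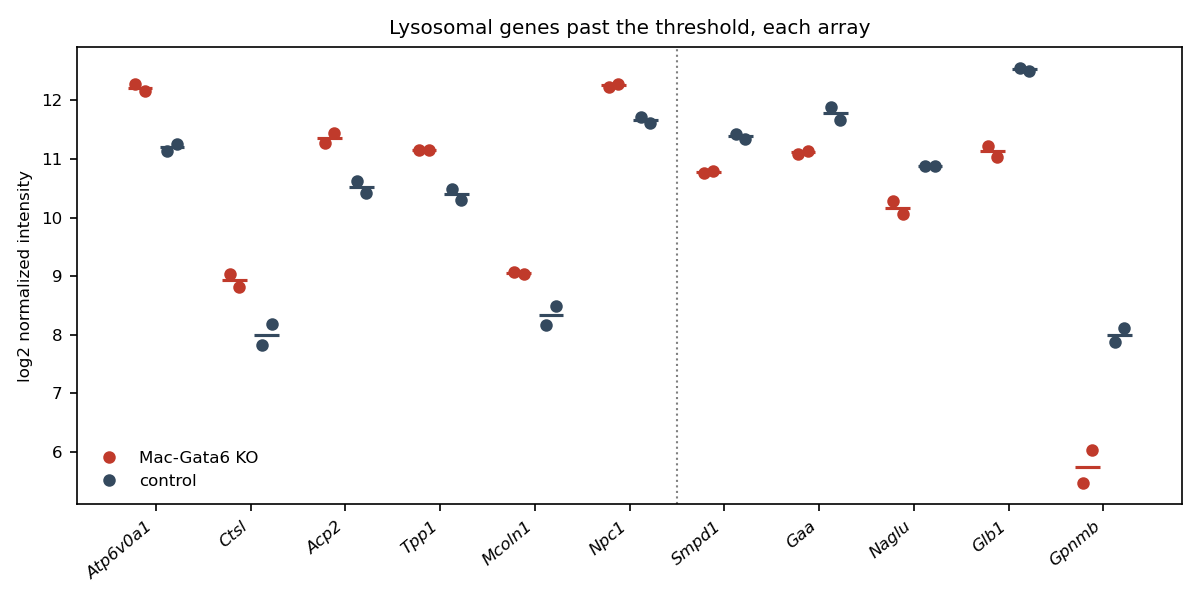
Log2 normalized intensity on each array (points) and group means (bars) for the 11 lysosomal genes that passed the threshold, Mac-Gata6 KO in red at the left of control in dark grey; genes left of the dotted line were higher in Mac-Gata6 KO and those right of it lower. The arrays of the groups do not overlap for any of these 11 genes, and the gap is widest for Gpnmb; heights of different genes are not comparable, since each probe has its own brightness.

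**Figure D2:**
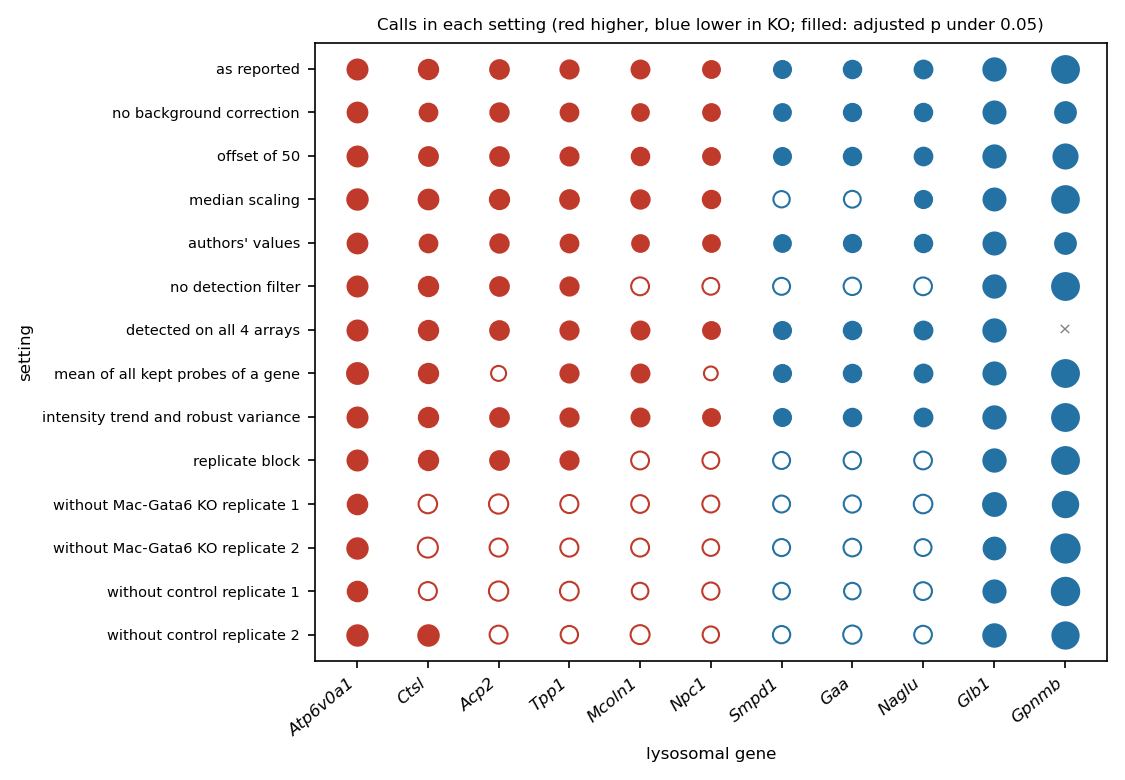
Each called lysosomal gene (columns) in each processing setting (rows): red circles stand for a higher and blue ones for a lower signal in Mac-Gata6 KO, filled circles passed the adjusted p threshold of 0.05, open ones did not, larger circles stand for a larger log2 change, and a cross marks a gene that the setting did not test. Glb1 and Atp6v0a1 are filled in every row, and Gpnmb in every row that tested it.

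The promoters of the called genes are shown for the element just described. RefSeq windows from 250 bases before to 50 bases after the start (build GRCm38.p6) were found for 43 of the 50 listed genes, 52 windows in all, and for 10 of the 11 called genes. The letters CACGTG, which read the same on both strands, occurred in a window of 14 of these 43 genes (32.6%), beside 8.09% of the 27025 genes in the table and 12.2% of the 7532 tested genes with a window. TCACGTG, searched on both strands and always overlapping CACGTG, occurred for 13 (30.2%), beside 4.29% and 7.34%. Among called genes, CACGTG lay in the windows of Mcoln1 and Ctsl, which were higher in Mac-Gata6 KO, and of Glb1, Naglu and Gaa, which were lower. These 5 genes are shown to let the shared letters be compared, and they were chosen after their matches were seen. The stretches give CACGTG with any T before it or A after it that completes TCACGTG on either strand in capitals, and 20 bases on each side where the window allows.
Mcoln1: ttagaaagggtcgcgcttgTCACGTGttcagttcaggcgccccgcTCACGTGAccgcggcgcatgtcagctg
Ctsl: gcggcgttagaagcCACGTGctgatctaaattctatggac
Glb1: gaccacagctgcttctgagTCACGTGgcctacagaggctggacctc
Naglu: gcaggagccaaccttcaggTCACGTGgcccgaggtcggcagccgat
Gaa: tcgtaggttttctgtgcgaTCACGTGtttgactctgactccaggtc
They lie at chr8:3500428-3500499 (plus strand), chr13:64370731-64370770 (minus strand), chr9:114401010-114401055, chr11:101070001-101070046 and chr11:119267803-119267848 (all plus strand). The core began 71 and 45 bases before the start in Mcoln1, 236 in Ctsl, 48 in Glb1, 73 in Naglu and 140 in Gaa. The rest of the 14 genes with the core did not pass: Lamp1, Lgmn, Ctsa, Ctsd, Atp6v0b, Atp6v0d1, Atp6v1a, Arsa and Gla. In the windows of Atp6v0a1, Gpnmb, Acp2, Tpp1 and Smpd1 these letters did not occur, which says nothing of other sites. The GATA letters AGATAA, searched on both strands, occurred for 6 of the 43 genes (14.0%), beside 12.7% of genes in the table and 7.62% of tested genes. AGATAG occurred for 1 (2.33%), beside 10.3% and 7.43%. Both occurred for 0 of the 10 called genes with a window. Genes of both directions thus carried CACGTG, and no binding was measured.

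Of the lysosomal membrane proteins, 2 of 7 tested rose, 1 fell and 4 did not pass, and 0 rose with no detection filter or with any 1 array left out. Over all genes the main fit called 6.11% higher and 6.14% lower. Gpnmb, a transmembrane glycoprotein of lysosomes and melanosomes that is known as a target of MITF, had the largest fitted change of the 46 genes. Its signal was 5.46 and 6.03 on the Mac-Gata6 KO arrays, against 7.88 and 8.12 on the control arrays. The probe was detected on 1 of the 2 Mac-Gata6 KO arrays, so the low group sits at the edge of background. The fitted log2 change was -2.25 ± 0.22 (SE of the fit, as throughout; adjusted p = 0.00219), though with 1 Mac-Gata6 KO array below the lowest detected signal its size is set in part by the background correction. Without background correction the change was -1.14, smaller than the -1.36 of Glb1 there, and the authors' values gave the same order. The other 3 Gpnmb probes were detected on 0 arrays.

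Mcoln1, which encodes the lysosomal calcium channel TRPML1, had signals of 9.07 and 9.04 in Mac-Gata6 KO, against 8.17 and 8.49 in control. It rose by 0.72 ± 0.16 on the log2 scale (adjusted p = 0.0375). Npc1 encodes the membrane protein that exports cholesterol from the lysosome. Its signals were 12.23 and 12.27 in Mac-Gata6 KO, against 11.72 and 11.62 in control, a rise of 0.58 ± 0.14 (adjusted p = 0.0429). The other detected Npc1 probes had log2 changes of 0.39 and -0.29, neither of which passed, so the gene's direction rests on its brightest probe. In the fit over all detected probes that probe itself had an adjusted p of 0.0545.

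The abundant structural glycoproteins of the lysosomal membrane did not pass. Lamp1 had 14.95 and 14.74 in Mac-Gata6 KO, against 14.54 and 14.61 in control, a log2 change of 0.27 with a 95% interval from -0.09 to 0.62. Lamp2 had the same change, 0.27 (interval -0.11 to 0.66), and its 5 other detected probes gave changes from -0.27 to 0.11. Laptm5, a membrane protein of lysosomes in blood cells, had a log2 change of 0.08. Scarb2, the receptor LIMP-2 that delivers glucocerebrosidase to lysosomes, had 11.28 and 11.08 in Mac-Gata6 KO, against 11.55 and 11.80 in control. Its arrays did not overlap, yet the log2 change of -0.50 ± 0.16 did not pass (adjusted p = 0.104).

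**Figure D3:**
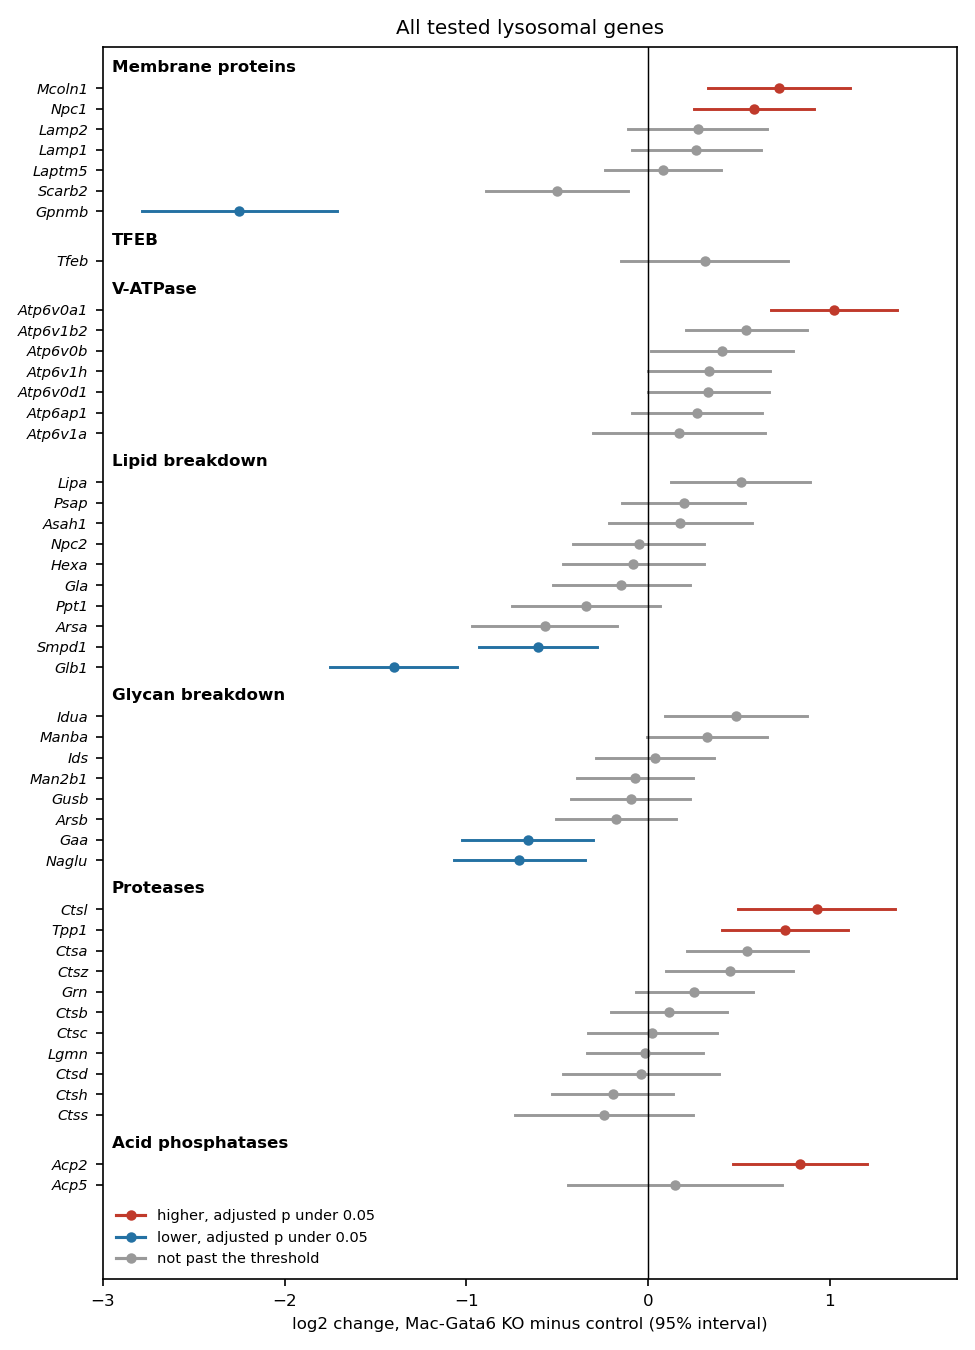
Log2 change (Mac-Gata6 KO minus control) with its 95% interval for the 46 lysosomal genes tested, grouped by role and ordered within each role; red passed the threshold as higher, blue as lower and grey did not pass. Grey intervals all lie between -1 and 1, and the V-ATPase genes all lie right of 0 with 1 of 7 in red.

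In the proton pump 1 of 7 genes rose and 0 fell, beside 6.11% and 6.14% of all genes. The number that rose was 3 without background correction, 3 with the authors' values, 4 with a trended, robust variance and 2 with an offset of 50 or with detection required on all 4 arrays. Over all genes 1098, 1100, 1089 and 904 rose in the first 4 of these settings, and 702 of 10016 in the last. The main fit gave 711. Atp6v0a1 encodes the a1 isoform of the membrane subunit that helps form the proton path. Its signals were 12.28 and 12.15 in Mac-Gata6 KO, against 11.13 and 11.26 in control. The change was 1.02 ± 0.14 on the log2 scale, or 2.03-fold higher (adjusted p = 0.00729). A second Atp6v0a1 probe gave 8.85 and 8.79 in Mac-Gata6 KO, against 7.58 and 7.47 in control, and its rise of 1.29 ± 0.14 passed as well (adjusted p = 0.00334). Both probes of the gene thus gave changes of similar size.

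The other pump genes on the list had positive changes that did not pass. Atp6v1b2, the nucleotide-binding B2 subunit of macrophages, had 13.85 and 13.72 in Mac-Gata6 KO, against 13.23 and 13.26 in control. Its log2 change of 0.54 ± 0.14 lay just outside the threshold (adjusted p = 0.0556). Changes were 0.41 for Atp6v0b, 0.34 for Atp6v1h, 0.33 for Atp6v0d1, 0.27 for the accessory subunit Atp6ap1 and 0.17 for the catalytic subunit Atp6v1a. The 7 positive changes kept their sign in all settings tried except 1, since Atp6v1a had a change of -0.07 without Mac-Gata6 KO replicate 2. Atp6v0d1 is the broadly expressed d subunit, and its paralog Atp6v0d2, known from osteoclasts, was not detected on any array. All 3 further Atp6v0d1 probes had positive changes too (0.21 to 0.53).

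Of the 11 further subunits tested that were not on the list, 0 passed by limma. An unadjusted p under 0.05 was seen for 3 of the 11, beside 27.9% of all genes. Over the 18 subunits together 1 passed (5.56%, beside 12.3% of all genes), the median log2 change was 0.30, and 15 changes were positive. All 9 subunits of the cytosolic V1 sector had positive changes, from 0.01 to 0.54. In the membrane V0 sector 4 of 7 were positive, from -0.24 to 1.02. Atp6v0a2 and Tcirg1, the other detected isoforms of the a subunit, had changes of -0.08 and 0.13, and whether these changes differ from that of Atp6v0a1 was not tested.

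**Figure D4:**
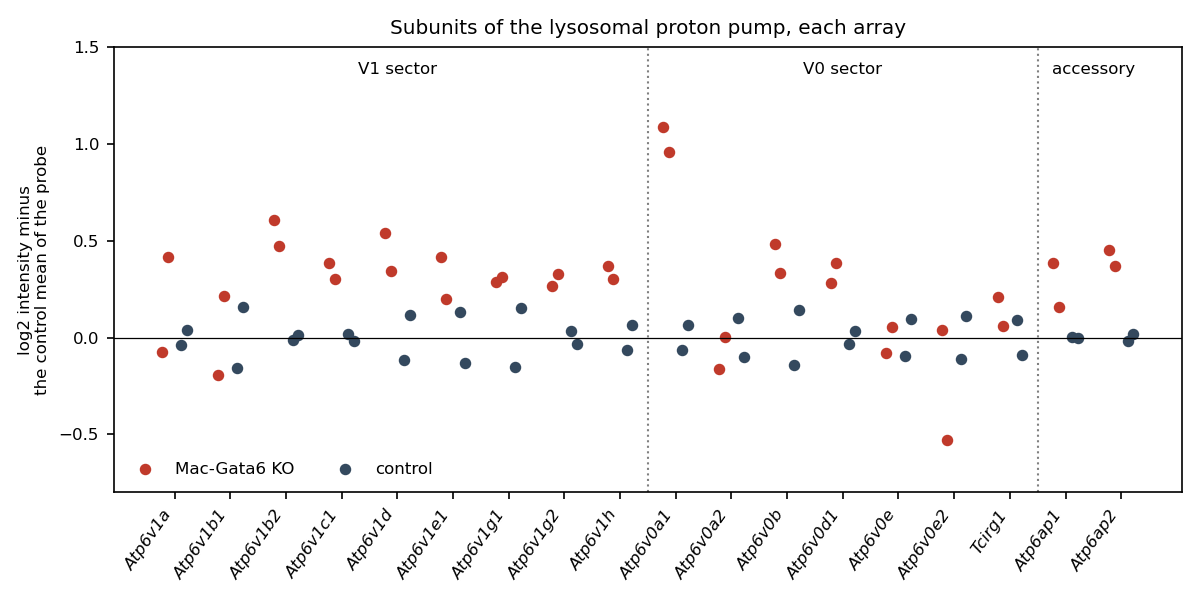
Log2 intensity on each array minus the control mean of the same probe for the 18 V-ATPase subunits tested, Mac-Gata6 KO in red at the left of control in dark grey. The Mac-Gata6 KO points of Atp6v0a1 stand on average 1.02 above control, while the next largest mean difference is 0.54 (Atp6v1b2).

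TFEB, the regulator of lysosomal genes, did not pass at the level of its own transcript. Tfeb had dim signals of 6.38 and 6.63 in Mac-Gata6 KO, against 6.39 and 5.99 in control, and the arrays overlapped. Its log2 change was 0.31 with an interval from -0.15 to 0.77. Its relatives Tfe3 and Mitf had changes of 0.18 and 0.21, which did not pass. In the list of these factors and of nutrient sensors at the lysosome, 0 of 16 tested genes passed by limma. An unadjusted p under 0.05 was seen for 3 of the 16, beside 27.9% of all genes. The nearest to the threshold was Lamtor4, a subunit of the Ragulator complex, at -0.67 (adjusted p = 0.0527).

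Enzymes and cofactors of lipid breakdown had 2 of 10 fallen, 0 risen and 8 that did not pass, beside 6.14% of all genes that fell. Without background correction, with the authors' values, an offset of 50 or a trended, robust variance, 3 of the 10 fell and 1 rose. Over all genes 1142, 1142, 969 and 1134 fell there, and 1098, 1100, 904 and 1089 rose, beside 714 and 711 in the main fit. With detection required on all 4 arrays 3 of 9 fell, beside 772 of 10016 genes. With no detection filter, with median scaling and with any 1 array left out, 1 of the 10 fell. Glb1 encodes beta-galactosidase, which removes galactose from gangliosides and keratan sulfate. Its signals were 11.22 and 11.04 in Mac-Gata6 KO, against 12.56 and 12.51 in control. The log2 change of -1.40 ± 0.14 (adjusted p = 0.00253) left 37.9% of the control signal. A second, dimmer Glb1 probe was not well above background in Mac-Gata6 KO and was at least 2.21-fold lower there than in control.

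Smpd1 encodes acid sphingomyelinase. Its signals were 10.77 and 10.79 in Mac-Gata6 KO, against 11.42 and 11.35 in control, and it fell by 0.61 ± 0.13 on the log2 scale (adjusted p = 0.0365). Its 2 other detected probes had changes of -0.52 and -0.70, of which the second passed. Arsa, the sulfatase of sulfatides, had a change of -0.57 ± 0.16 that did not pass (adjusted p = 0.0779). Arsa did pass in the settings above where 3 genes of this role fell.

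Lipa, the acid lipase that hydrolyses cholesteryl esters and triglycerides, had 13.08 and 13.35 in Mac-Gata6 KO, against 12.77 and 12.65 in control. The arrays did not overlap, but the log2 change of 0.51 ± 0.16 did not pass (adjusted p = 0.0934), with a second probe at 0.54. Lipa did pass in the settings above where 1 gene of this role rose. Changes of the remaining genes of this role lay between -0.34 (Ppt1) and 0.20 (Psap). Psap encodes the precursor of the saposins, and it had 15.53 and 15.42 in Mac-Gata6 KO, against 15.22 and 15.34 in control. The hexosaminidase subunit Hexa had a change of -0.08, the ceramidase Asah1 0.18 and the cholesterol carrier Npc2 -0.05. For these 3 genes the arrays of the groups overlapped. Gla, an alpha-galactosidase that acts on glycolipids, was near background, with 5.90 and 5.64 in Mac-Gata6 KO, against 5.86 and 5.98 in control.

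Enzymes of glycan breakdown had 2 of 8 fallen and 0 risen, beside 6.14% and 6.11% of all genes. The number that fell was 1 with median scaling, 0 with no detection filter and 0 with any 1 array left out. In 3 settings 1 gene of this role rose, Idua. These were no background correction, the authors' values and a trended, robust variance, where 1098, 1100 and 1089 of all genes rose. Naglu, which removes N-acetylglucosamine from heparan sulfate, had 10.29 and 10.06 in Mac-Gata6 KO, against 10.87 and 10.88 in control. It fell by 0.71 ± 0.15 on the log2 scale (adjusted p = 0.0302). Gaa, the acid glucosidase of glycogen, had 11.09 and 11.14 in Mac-Gata6 KO, against 11.89 and 11.66 in control, and fell by 0.66 ± 0.15 (adjusted p = 0.0379).

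Other enzymes acting on glycosaminoglycans did not pass. Idua, the iduronidase, had 10.63 and 10.34 in Mac-Gata6 KO, against 9.93 and 10.07 in control, and its change of 0.48 ± 0.16 was of the opposite sign to Naglu (adjusted p = 0.112). Ids, the iduronate sulfatase, had a change of 0.04 (interval -0.29 to 0.36) and Arsb -0.17. The mannosidases Man2b1 and Manba had changes of -0.07 and 0.32. Gusb, the beta-glucuronidase, had a change of -0.10 by its brightest probe and of -0.40 to -0.52 by 3 others, of which none passed.

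Proteases and their cofactors had 2 of 11 risen, 0 fallen and 9 that did not pass. Of all genes 6.11% rose and 6.14% fell. The number that rose was 0 or 1 with 1 array left out, and 4 without background correction, 4 with the authors' values and 5 with a trended, robust variance. Ctsl, the cysteine protease cathepsin L, had 9.04 and 8.82 in Mac-Gata6 KO, against 7.82 and 8.18 in control. The rise was 0.93 ± 0.18 on the log2 scale (adjusted p = 0.0232), or 1.90-fold. Tpp1, which cuts tripeptides from the ends of proteins, had 11.15 and 11.16 in Mac-Gata6 KO, against 10.49 and 10.31 in control, a rise of 0.76 ± 0.14 (adjusted p = 0.0220).

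Most cathepsins did not pass. Of 8 tested, 1 rose and 0 fell, so 12.5% were called, beside 12.3% of all genes. Their median log2 change was 0.07. Ctss, a cathepsin of antigen processing, had 11.56 and 12.02 in Mac-Gata6 KO, against 12.17 and 11.89 in control, with overlapping arrays and a change of -0.24. Ctsb, cathepsin B, had 15.56 and 15.52 in Mac-Gata6 KO, against 15.43 and 15.42 in control, a log2 change of 0.11 with an interval from -0.21 to 0.44. Ctsd, Ctsc and Ctsh had changes of -0.04, 0.02 and -0.19. The asparaginyl protease Lgmn, which trims cathepsins, had -0.02, with all 4 arrays between 13.58 and 13.61. Ctsz had a change of 0.45 ± 0.14 that did not pass (adjusted p = 0.103). Grn, the progranulin gene, had 15.22 and 15.19 in Mac-Gata6 KO, against 14.93 and 14.97 in control, and its change of 0.26 ± 0.13 did not pass although the arrays did not overlap.

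Detected probes of 1 gene also disagreed for Ctsa, the protective protein that holds beta-galactosidase and neuraminidase in a complex. Its brightest probe had 15.58 and 15.52 in Mac-Gata6 KO, against 15.06 and 14.94 in control, a change of 0.55 ± 0.14 just outside the threshold (adjusted p = 0.0543). The other 4 detected probes had changes of -0.46, -0.48, -0.54 and 0.00. With the mean of all its probes the change was -0.18, so no direction is given for Ctsa. Over the 20 lysosomal genes with more than 1 detected probe, 26 of 36 further probes had the sign of the brightest one. For called genes this was 7 of 9, and 3 of the 9 passed by themselves.

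**Figure D5:**
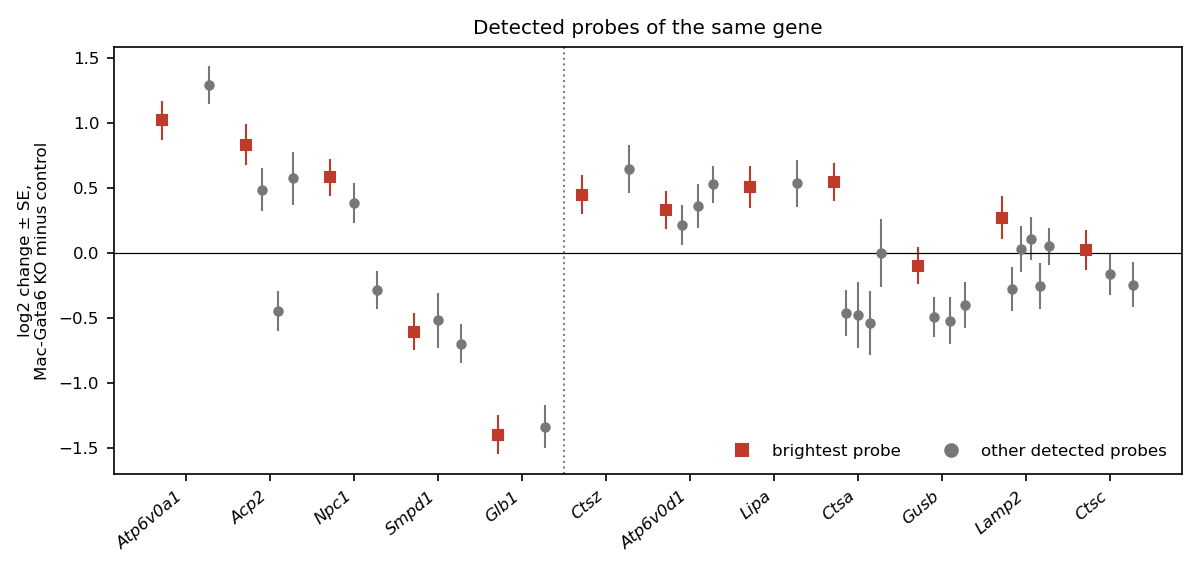
Log2 change (Mac-Gata6 KO minus control) ± SE of each detected probe of 12 lysosomal genes, the brightest probe as a red square and the others as grey circles; genes left of the dotted line passed the threshold, and those right of it were chosen as examples after their values were seen. The probes of Atp6v0a1, Smpd1, Glb1, Ctsz, Atp6v0d1, Lipa and Gusb lie on 1 side of 0 for each gene. Acp2, Npc1, Ctsa, Lamp2 and Ctsc have probes on both sides.

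Of the acid phosphatases, Acp2 rose and Acp5 did not pass. Acp2, the membrane-anchored lysosomal acid phosphatase, had 11.27 and 11.44 in Mac-Gata6 KO, against 10.62 and 10.42 in control. It rose by 0.83 ± 0.15 on the log2 scale (adjusted p = 0.0193). Its 3 other detected probes had changes of 0.58, 0.49 and -0.45, none of which passed, so its probes spanned a wider range than those of Ctsa. Acp5, the tartrate-resistant phosphatase known from osteoclasts, had dim signals of 6.03 and 5.80 in Mac-Gata6 KO, against 6.11 and 5.44 in control. Ctsk and Atp6v0d2, also known from osteoclasts, were not detected in either group, whereas the osteoclast pump subunit Tcirg1 was detected on all 4 arrays. Of 8 osteoclast markers 4 were tested and 1 was higher in Mac-Gata6 KO (Mmp9), beside 6.11% of all genes. Calcr, Ocstamp and Dcstamp were detected on 0 arrays.

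Genes that work with these 46 but are not among them showed a few larger changes. Among other lysosomal membrane proteins 2 of 24 rose and 0 fell. The amino acid transporter Slc36a1 had 6.92 and 7.12 in Mac-Gata6 KO, against 5.62 and 5.85 in control, a rise of 1.29 ± 0.16, and was detected on 1 control array. Slc15a4, a transporter of histidine and small peptides, rose by 0.65 ± 0.15.

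Among other hydrolases and activators 3 of 18 rose and 2 fell. Dnase2a, the acid nuclease for DNA of engulfed cells, had 11.68 and 11.83 in Mac-Gata6 KO, against 10.75 and 10.50 in control, a rise of 1.13 ± 0.15. Hyal2 rose by 0.95 ± 0.14, whereas cathepsin F (Ctsf) fell by 1.01 ± 0.16 and the sulfatase Galns by 0.92 ± 0.18 on the log2 scale. Hyal1 was not well above background in control and was at least 1.77-fold higher in Mac-Gata6 KO. Lyz2, the lysozyme M gene that also drives Cre in the knockout, had 15.18 and 15.29 in Mac-Gata6 KO, against 15.08 and 15.27 in control. Its close paralog Lyz1 can share its signal.

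In the machinery that sorts hydrolases to lysosomes, 1 of 22 genes rose and 1 fell. Ap1b1, a subunit of the AP-1 clathrin adaptor, rose by 0.99 ± 0.14 and the sorting receptor Sorl1 fell by 0.96 ± 0.23. The mannose 6-phosphate receptors M6pr and Igf2r had changes of -0.16 and 0.20, which did not pass. Of genes for lysosome fusion and positioning 1 of 18 rose, the RAB7 effector Rilp (0.71 ± 0.15). The shares called were 27.8% of the other hydrolases, 8.33% of the other membrane proteins, 9.09% of the sorting genes and 5.56% of the fusion genes, beside the 12.3% of all genes. With 1 array left out, Slc36a1 and Dnase2a passed in all 4 cases, Ap1b1 and Hyal2 in 3, Ctsf, Galns and Sorl1 in 1, and Rilp, Slc15a4 and Hyal1 in none. With no detection filter Galns, Sorl1, Rilp, Slc15a4 and Hyal1 did not pass.

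Inhibitors that keep cathepsins and related proteases in check had 2 of 6 risen and 1 fallen, so 3 of 6 were called, beside 12.3% of all genes. Serpinb1a, a cytosolic inhibitor of serine proteases, had 8.91 and 9.31 in Mac-Gata6 KO, against 11.19 and 11.12 in control. It fell by 2.05 ± 0.18 on the log2 scale (adjusted p = 0.00139), and passed with any 1 array left out. Serpinb6a rose by 0.98 ± 0.15 and cystatin B (Cstb), an inhibitor of cysteine cathepsins, by 0.69 ± 0.13. Cstb passed in none of the 4 cases with an array left out and Serpinb6a in 2. Cystatin C (Cst3) had a change of 0.09, which did not pass.

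Some markers of other cell types differed between the groups. Over all genes 6.11% were higher in Mac-Gata6 KO and 6.14% lower. Of 6 B cell markers tested 5 were higher in Mac-Gata6 KO, and their summed normalized intensity was 1929 and 2165 there, against 964 and 948 in control. Pax5, Cr2, Ebf1 and Fcer2a were detected on 0 arrays. Erythroid markers had 3 of 4 higher, with sums of 882 and 866 in Mac-Gata6 KO, against 182 and 194 in control. Of 3 dendritic cell markers 2 were higher, with sums of 500 and 405 in Mac-Gata6 KO, against 272 and 281 in control. Mast cell markers had 1 of 4 higher, with sums of 351 and 392 in Mac-Gata6 KO, against 225 and 252 in control. Detected on 0 arrays were 5 of 9 annotated erythroid markers, 6 of 10 dendritic cell markers and 4 of 9 mast cell markers. Among them were Alas2, Flt3, Zbtb46 and Kit. S100a8, the 1 neutrophil marker tested, was lower in Mac-Gata6 KO, and 9 T and NK cell markers and 5 eosinophil markers were detected on 0 arrays. The 1 T and NK cell marker tested, Klrb1c (-0.12), and the 1 eosinophil marker tested, Il5ra (0.08), did not pass. The part of these cells in the lysosomal changes was not tested. In bulk samples such as these, fewer cells of a type and less RNA per cell cannot be told apart.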

How the data were processed

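The authors deposited raw probe intensities and a detection p-value beside each one, per the file headers. Their other table gives processed, linear intensities that share 1 distribution across arrays (medians 142.05 to 142.14). Scanner software for either: not given in the sources used here. Raw intensities had medians from 136.4 to 146.2.

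Background correction and quantile normalization used neqc of limma 3.58.1 in R 4.3.3 (offset 16, log2). Probes detected at p under 0.05 on at least 2 arrays were kept (16713), and the brightest probe stood for its gene. Signals and changes are on the log2 scale. The 2 groups were compared by lmFit and eBayes without a block, two-sided, with Benjamini-Hochberg adjustment over 11628 genes. The other probes of a gene were fitted over all kept probes. A bound ("at least") sets the brighter mean against, per array, the higher of the dim value and the lowest detected value. Symbols came from the platform annotation, and 34807 of 34885 probes with 1 symbol matched RefSeq (GRCm38.p6) by gene identifier. Expression of near-identical family members can share a probe. The number of arrays limits the precision.

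Members and lists were chosen with earlier results of these data known. Genes described in full were the called members, in each role the uncalled ones with the smallest p or highest signal, and in other lists up to 4 called genes with the smallest p. Hyal1, Gla and other genes outside this rule were added after their values were seen. Alternatives covered background, offset, scaling, the authors' values, detection filter, probes per gene, variance model, replicate block and leaving out each array from the normalized values. The fit was tested on simulated data.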

Additional observations from a re-analysis of the deposited data

How the results depend on the processing

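The called lysosomal genes kept their direction in every setting, but most calls depended on the setting. Higher and lower lysosomal genes numbered 12 and 7 on uncorrected intensities, 12 and 7 on the deposited processed values, 14 and 7 under the trended, robust variance model, 6 and 3 with median scaling, 4 and 2 with no detection filter, and 4 and 2 with the replicate block. Over all genes these were 1098 and 1142, 1100 and 1142, and 1089 and 1134 in the first 3 settings. They were 854 and 686 with median scaling, and 526 and 509 of 29453 genes and unnamed probes with no detection filter. The main fit gave 711 and 714. Nothing in the labels pairs samples by replicate number, and same-numbered deviations correlated at -0.13 across genes. The replicate block gave 597 higher and 560 lower genes, and a crossed replicate block, chosen after seeing the data, gave 730 and 745, with 5 and 5 lysosomal genes. Under the replicate block Mcoln1, Npc1, Naglu, Gaa and Smpd1 lost their calls, as did Cstb, Rilp and Slc15a4. Leaving out 1 array, with the lone array's spread taken from the other group, gave 1 to 2 higher and 2 lower lysosomal genes (2 to 2), and 261 to 404 higher and 245 to 410 lower genes over all. The Gata6 log2 change was then -0.88 to -0.64 and did not pass. Signs turned only among uncalled genes. With the mean of all probes Lamp2 was -0.0097, Ctsa -0.18 and Ctsc -0.13. With median scaling Laptm5 was -0.075, Ctsb -0.013 and Ctsd 0.026. With 1 array left out changes were -0.168 to 0.0628 for Npc2, -0.238 to 0.0766 for Hexa, -0.081 to 0.129 for Ctsc, -0.192 to 0.116 for Ctsd, -0.188 to 0.482 for Acp5 and -0.0734 to 0.417 for Atp6v1a. The cause of these differences was not tested. Signal over background limits Gpnmb, Gla, Acp5 and Tfeb. No slide is named, so no slide block was run.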
